A study of Mus musculus with 15 samples.

Results

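The D cyclins (Ccnd1, Ccnd2 and Ccnd3), their kinases (Cdk4 and Cdk6) and the pocket proteins of the RB family (Rb1, Rbl1 and Rbl2) were followed in a list of peaks of the histone mark H3K27ac from a mouse tumor. The 8 genes were taken by name. A peak was counted for a gene when it overlapped the RefSeq span of that gene or the 50 kb on either side by at least 1 bp, and 209 of the 122375 peaks in the list did so. Peaks were then divided into promoter peaks, within 2 kb of a start site of the gene, gene body peaks and flank peaks. No peak lay in the windows of more than 1 of the 8 genes.

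The list came from a tumor library of a mouse model of fusion-positive rhabdomyosarcoma, a childhood tumor of muscle-like cells driven by the fusion protein PAX3-FOXO1. The labels name the genotype and not the type of the tumor, and the study describes MCP tumors as varied in histology. The mice carried Myf6-Cre, Cdkn2a(Flox/Flox), the conditional fusion written as Pax(3P3F/P3F), and the R26-tdTom reporter, and were called MCP. Mice called TCP carried Tek-Cre with the same other alleles. Myf6-Cre acts in myogenic cells and Tek-Cre in endothelial and hematopoietic cells, and Cre turns on the fusion and the reporter and removes Cdkn2a. The series held 15 CUT&RUN libraries, of which 6 MCP and 3 TCP libraries were made with the H3K27ac antibody and 3 MCP and 3 TCP libraries with IgG. The list was that of the library MCP H3K27ac replicate 5, so there were no replicates and no comparison with TCP was made. The methods state that live tumor cells were sorted from digested tumors by a procedure given earlier. For single-cell RNA sequencing they name tdTomato-positive cells. For these libraries no gate on tdTomato is spelled out, so cells of the host could be among them. The ages of the mice are not given in the sources used here.

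In G1 phase, D-type cyclins bind and activate CDK4 and CDK6, which phosphorylate the RB protein and its relatives p107 (Rbl1) and p130 (Rbl2). Unphosphorylated pocket proteins hold E2F transcription factors and keep genes of DNA replication silent, and p130 does so in resting cells as part of the DREAM complex. The Cdkn2a product p16INK4a inhibits CDK4 and CDK6, so this step sits directly downstream of the tumor suppressor floxed in these mice. H3K27ac marks active promoters and enhancers, and CUT&RUN cuts out the DNA beside an antibody bound to it.

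The median peak of the list had 13 fragments over its summit, and the fewest were 7 (both numbers inferred from the deposited values). Fold enrichment is the scaled number of fragments over the summit plus 1, divided by the local background plus 1. The labeled cell type was checked against marker genes. Of 10 myogenic markers only Myf6 had a promoter peak, with none at Myod1, Myog or Pax7, and promoter peaks were listed at 1 of 10 endothelial markers (Cd34), at 2 of 10 immune markers (Cd68 and Cd14) and at 3 of 10 fibroblast markers (Col3a1, Pdgfra and Postn). Flank peaks of the myogenic markers numbered 35 at Myf6, 29 at Myf5, 17 at Chrna1, 15 at Des, 11 at Myod1 and 7 at Cdh15. Mef2c had no flank peak, and Myog, Pax7 and Msc had no peak in their windows. In the other lists flank peaks reached 15 at an endothelial marker (Cd34), 22 at an immune marker (Cd68) and 19 at a fibroblast marker (Col3a1). The median window density was 83.0 peaks per Mb for the myogenic markers, 60.5 for the endothelial, 40.9 for the immune and 8.36 for the fibroblast markers. Single myogenic markers ran from 0 to 353 peaks per Mb, and differences between the lists were not tested. Myf5 and Myf6 both lie on chromosome 10, and a peak in both windows was counted for each of them. How far these windows overlap was not measured, so the myogenic median may count the same region more than once. The part of other cell types in the results was not tested. The floxed gene was also checked: 24 peaks overlapped the 20.1 kb of Cdkn2a on chromosome 4. Exons 2 and 3, which its 2 transcripts share, lay in a stretch of 4.34 kb with no peak. Across the genome even gaps of 21.3 kb or more made up 13.4% of all gaps between neighboring peaks. The window of Cdkn2a was denser, at 641 peaks per Mb against 44.9 in the genome. These gaps therefore cannot show whether the stretch was unusual at this gene, and loss of the exons was not tested. Which exons the floxed allele loses is not given in the sources used here.

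Of the 8 genes, 7 had at least 1 promoter peak, against 45.6% of 21774 protein-coding genes. Gene body peaks outside promoters were found in 5 of the 8 (31.3% of all protein-coding genes) and flank peaks around 7 of the 8 (70.7%). Ccnd2 alone had no peak in its window, a state shared by 23.7% of protein-coding genes. The counts ranged from 0 at Ccnd2 to 102 at Cdk6. Cdk6 and Ccnd3 together held 150 of the 209 peaks (71.8%).

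**Figure D1:**
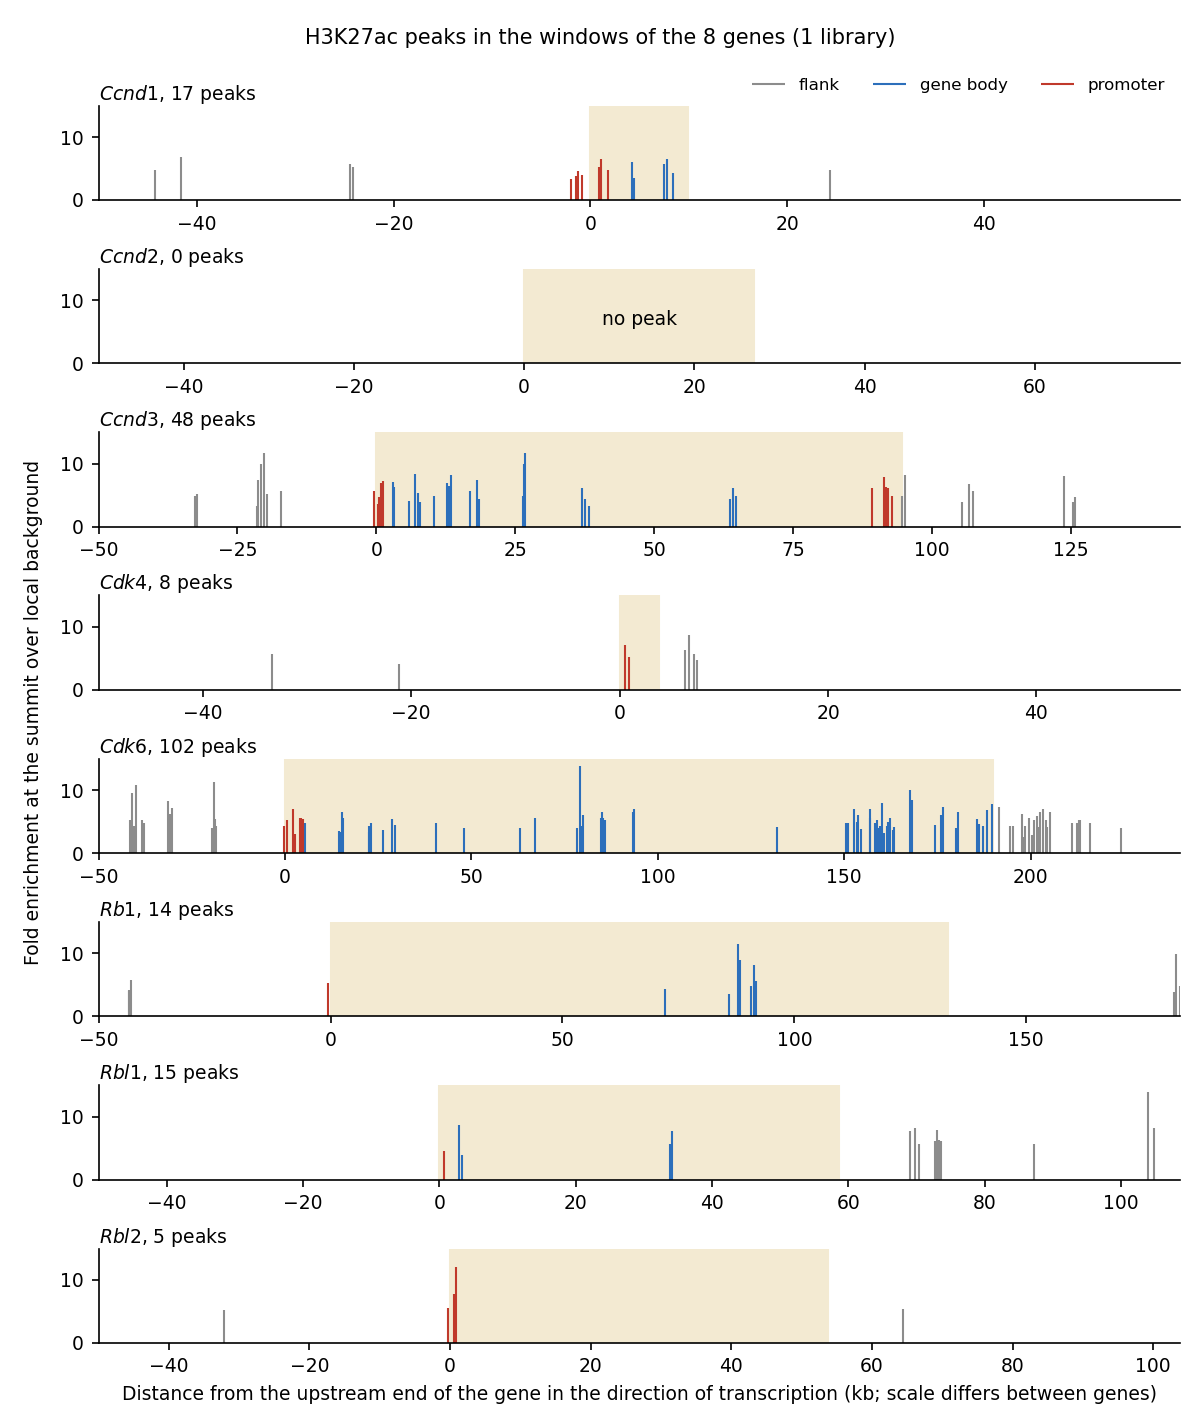
Peaks of H3K27ac in the window of each gene, drawn at their summits by distance (kb) from the upstream end of the gene, with fold enrichment over local background as height, the gene span shaded, and promoter, gene body and flank peaks in red, blue and gray. Cdk6 carries 102 peaks in groups along the gene and past its end, Ccnd2 carries none, and the 7 blue peaks of Rb1 all lie in intron 17.

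Promoter sequences were taken from RefSeq (GRCm38.p6), whose table held 6 start sites of 5 of the 8 genes and did not list Ccnd1, Ccnd2 and Rb1. The 250 bases before each start site are shown 5′ to 3′ because a promoter peak lies within 2 kb of each start site, and because their motifs differ between the genes. Only the stretch of Cdk6 was itself overlapped by a peak. At Cdk4, Rbl1 and the downstream Ccnd3 start site the nearest peak upstream lay 21.1, 75.2 and 23.5 kb away. Capitals mark matches on either strand to the motifs searched.
Ccnd3 upstream start site, chr17:47504801-47505050, plus strand: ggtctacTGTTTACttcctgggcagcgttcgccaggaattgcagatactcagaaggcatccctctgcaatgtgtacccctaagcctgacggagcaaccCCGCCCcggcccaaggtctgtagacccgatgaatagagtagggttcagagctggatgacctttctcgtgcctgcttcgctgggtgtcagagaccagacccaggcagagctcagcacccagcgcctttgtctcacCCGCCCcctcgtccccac
Ccnd3 downstream start site, chr17:47593217-47593466, plus strand: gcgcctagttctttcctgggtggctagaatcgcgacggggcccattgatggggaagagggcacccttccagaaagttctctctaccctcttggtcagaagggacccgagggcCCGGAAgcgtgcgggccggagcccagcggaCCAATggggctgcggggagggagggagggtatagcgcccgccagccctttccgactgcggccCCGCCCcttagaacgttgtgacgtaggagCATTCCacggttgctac
Cdk4, chr10:127063285-127063534, plus strand: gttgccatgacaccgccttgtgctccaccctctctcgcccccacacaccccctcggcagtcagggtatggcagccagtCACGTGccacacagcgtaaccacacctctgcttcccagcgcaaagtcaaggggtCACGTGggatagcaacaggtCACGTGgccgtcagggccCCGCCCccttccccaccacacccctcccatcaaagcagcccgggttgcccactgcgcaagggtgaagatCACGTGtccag
Cdk6, chr5:3343643-3343892, plus strand: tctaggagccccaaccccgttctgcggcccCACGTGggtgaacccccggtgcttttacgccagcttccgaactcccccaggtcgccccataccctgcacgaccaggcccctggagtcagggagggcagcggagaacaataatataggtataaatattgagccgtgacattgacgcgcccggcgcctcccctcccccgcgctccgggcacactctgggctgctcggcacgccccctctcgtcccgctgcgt
Rbl1, chr2:157204535-157204784, minus strand: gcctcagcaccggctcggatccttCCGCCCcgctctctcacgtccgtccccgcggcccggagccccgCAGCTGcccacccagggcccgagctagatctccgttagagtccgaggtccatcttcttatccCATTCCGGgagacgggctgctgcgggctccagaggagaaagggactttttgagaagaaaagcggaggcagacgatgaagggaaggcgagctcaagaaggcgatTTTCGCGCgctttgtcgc
Rbl2, chr8:91069807-91070056, plus strand: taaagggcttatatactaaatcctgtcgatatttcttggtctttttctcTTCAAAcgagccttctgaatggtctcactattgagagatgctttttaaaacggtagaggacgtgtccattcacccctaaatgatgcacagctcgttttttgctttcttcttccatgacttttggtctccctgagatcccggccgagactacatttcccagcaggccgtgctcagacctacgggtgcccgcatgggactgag

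The motifs were those of E2F (TTTCCCGC, TTTGGCGC, TTTCGCGC or TTTGCCGC), the CHR element bound by DREAM (TTTGAA or TTCGAA), the CAAT box (CCAAT), the GC box (GGGCGG), ETS factors (CCGGAA), AP-1 (TGACTCA), the myogenic E-box (CAGCTG), the cAMP response element (TGACGTCA), TEAD (GGAATG) and forkhead factors (GTAAACA). The E-box of MYC and related factors (CACGTG) was added after the sequences had been seen. An E2F motif was found in Rbl1 alone, as TTTCGCGC beginning 18 bases before the start site, and 1.86% of the 32851 promoters in the table hold one. The TEAD and ETS matches of Rbl1 overlap each other. The Cdk4 promoter holds CACGTG 4 times, beginning 172, 118, 98 and 11 bases before the start site, while 6.02% of all promoters hold it at all and 7 of the 32851 hold it at least 4 times. Cdk6 holds it once. GC boxes were found before 4 of the 6 start sites (32.7% of all promoters), and the Rbl2 promoter holds only a CHR element (17.1%). A match is a description of the letters and no measure of binding.

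The D cyclins ranged from 0 to 48 peaks. At Ccnd1, the cyclin that many growth signals raise, 17 peaks were listed, of which 7 were promoter peaks, 5 gene body peaks and 5 flank peaks. The promoter peaks lay on both sides of the start site on chromosome 7 at 144939831 (minus strand), 4 upstream and 3 downstream. They were small, with fold enrichments from 3.35 to 6.51 and 10 to 16 fragments. The strongest of them (144938705 to 144938789, fold enrichment 6.51) lay in intron 1. A gene body peak of the same fold enrichment (144932051 to 144932132) lay in the untranslated part of an exon. The broadest Ccnd1 peak lay upstream, its summit 41.6 kb from the start site, at 144981024 to 144983540. It was 2517 bp wide, wider than 99.7% of all peaks, and had 30 fragments at its summit with a fold enrichment of 6.88. Another flank peak (4.77) lay at the shared promoter region of LTO1 and the noncoding RNA Bc1.

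Ccnd2, the cyclin of stem and progenitor cells in many tissues, had no peak in the 127 kb of its window on chromosome 6 (gene from 127125162 to 127152188, minus strand). The nearest peaks ended at 126940633 and began at 127329289, which left 389 kb with no peak. Peaks of the list are numbered along the genome and no number was absent there, so no peak of this stretch had been removed from the list after numbering. The stretch also held the protein-coding genes Fgf6, Fgf23 and Tigar. Chromosome 6 itself had 59.4 peaks per Mb, and 50 of its 8898 gaps between neighboring peaks were as long. In the genome 1049 of 122354 gaps were as long, and these covered 40.4% of the chromosomes. A region with fewer fragments than the caller required would also appear empty, so the absence of a peak does not show the absence of the mark.

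Ccnd3, the cyclin associated with differentiating muscle and lymphoid cells, had 48 peaks, with 10 promoter, 22 gene body and 16 flank peaks on chromosome 17. Its curated start sites are 88.4 kb apart, at 47505051 and 47593467, and 5 of the promoter peaks lay at the upstream start site and 1 at the downstream one. The other 4 lay at predicted start sites of RefSeq. The strongest promoter peak (47596277 to 47596560, fold enrichment 7.80, 18 fragments) was one of these 4 and lay in intron 4 of the long transcript. With curated start sites alone it no longer counted as a promoter peak, and the highest value became 7.24. All 22 gene body peaks had their summits in intron 1, which is 73.4 kb long, and none lay in intron 2 (14.9 kb). The strongest of them (47531820 to 47532162, fold enrichment 11.7, 26 fragments) lay 26.8 kb into the gene. The broadest Ccnd3 peak (47511488 to 47512413) was 926 bp wide and lay in the same intron. The strongest flank peak equaled it at 11.7 and lay upstream within Taf8 (47484680 to 47484993). Flank peaks also lay at the promoters of Bysl, Gm20517 and Med20 (3 peaks, up to 6.75) and at that of Usp49 (3 peaks, up to 8.09).

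The kinases had 8 and 102 peaks. Cdk4, a gene of 3.75 kb on chromosome 10 from 127063535 to 127067288, had 2 promoter peaks and no other peak in its body. Both lay downstream of the start site in intron 1. The stronger one (127063715 to 127064311) was 597 bp wide, with a fold enrichment of 7.11 and 23 fragments, and the other had a fold enrichment of 5.22. All 6 flank peaks of Cdk4 lay at promoters of other genes, 4 of them at that of Tspan31, which faces the noncoding RNA A730063M14Rik, 1 at Tsfm and 1 at Eef1akmt3 and Mettl1. The strongest of these, at Tspan31 (127069949 to 127070227), had a fold enrichment of 8.67, above both Cdk4 promoter peaks.

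Cdk6, of 190 kb on chromosome 5 from 3341004 to 3531008, had 7 promoter peaks, 59 gene body peaks and 36 flank peaks. Its promoter peaks reached a fold enrichment of 6.98 (3342915 to 3343444, 16 fragments), and 6 of them also lay at the start of the noncoding RNA Gm36470. The gene body was not covered evenly. Intron 5 (42.2 kb) held 23 summits and intron 2 (46.1 kb) held 17, while intron 4 (44.0 kb) held 3. From the first summit in intron 5 to the end of the window lay 55 of the 102 peaks. The strongest gene body peak lay in intron 3 at 3419806 to 3420564, 76.2 kb from the start site, with a fold enrichment of 13.8 and 31 fragments, above 99.2% of all peaks in the list. A further 7 summits lay in the untranslated part of the last exon, and the broadest peak (3539604 to 3541224, 1621 bp) lay past the gene. Upstream, the strongest flank peak (3321673 to 3321953) had a fold enrichment of 11.2, and downstream 8 flank peaks lay at the promoter of Fam133b.
The 201 bases around the summit of the strongest gene body peak are shown because no peak of Cdk6 was stronger, and none of the motifs searched lies in them.
Cdk6 intron 3 peak, chr5:3419987-3420187, plus strand: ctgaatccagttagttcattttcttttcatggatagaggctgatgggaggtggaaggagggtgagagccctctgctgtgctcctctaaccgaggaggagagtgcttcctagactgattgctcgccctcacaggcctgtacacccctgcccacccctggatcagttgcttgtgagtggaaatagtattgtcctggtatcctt

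When peaks wholly within 2.5 kb of a start site were set aside and the others were joined across gaps of up to 12.5 kb, 18834 clusters resulted, ranked by the sum of fold enrichment times width. The best cluster at Cdk6 joined 46 peaks over 74.0 kb from intron 5 past the end of the gene and ranked 324 (the top 1.72%). This cluster ended at 3565237, within Fam133b, while Cdk6 ends at 3531008, so its rank is not that of Cdk6 alone. The best one at Ccnd3 joined 18 peaks over 34.7 kb of intron 1 and ranked 1553 (8.25%). At Ccnd1, Rbl1 and Rb1 the best clusters lay outside the gene and ranked 2480, 2644 and 2870. That of Ccnd1 ran 4.95 kb past the window, and that of Rb1 ran 26.7 kb past it, so that only 3 of its 12 peaks were among the peaks counted for Rb1. That of Rbl2 was a single peak at rank 16301, and Ccnd2 and Cdk4 had none. With gaps of 5 kb, Cdk6 was in the top 3.18% and Ccnd3 in the top 7.57% of 26602 clusters, and the best one at Rb1 was another, inside the gene, at rank 6472 (24.3%).

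Rb1, the retinoblastoma tumor suppressor, had 1 promoter peak on chromosome 14 (73326274 to 73326566), upstream of the start site at 73325822, with a fold enrichment of 5.22 and 11 fragments. Its 7 gene body peaks all lay in intron 17. That intron contains the receptor gene Lpar6 (73237891 to 73240358), and 6 of the 7 lay in Lpar6 or within 5 kb of it. The strongest and broadest of them (73238062 to 73239851, 1790 bp, fold enrichment 11.5, 28 fragments) overlapped the Lpar6 promoter. The other 25 introns of Rb1 held no summit. Of the 6 flank peaks, 3 lay at the promoter of Rcbtb2, the strongest with a fold enrichment of 9.96 (73143679 to 73143950), and 3 lay in Itm2b.

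Rbl1, which encodes p107, had 1 promoter peak on chromosome 2 (157203694 to 157203884), in intron 1, with a fold enrichment of 4.54 and 10 fragments. Its strongest gene body peak (157201602 to 157202193, fold enrichment 8.67, 19 fragments) lay in the same intron, 2.87 kb from the start site. The 10 flank peaks all lay downstream of Rbl1, in Samhd1, a regulator of the nucleotide pool, or at its promoter. One of them (157100538 to 157101321) had a fold enrichment of 14.0 and 32 fragments, the highest of all 209 peaks. It lay within Samhd1 and 92.5 kb from the Rbl1 start site, and its neighbor (157099450 to 157100235) was the broadest at 786 bp.

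Rbl2, which encodes p130, had few peaks but the highest fold enrichment at a promoter in the family. Its 3 promoter peaks on chromosome 8 had fold enrichments of 5.55, 7.70 and 12.1, with 12, 25 and 27 fragments. Their local backgrounds were 1.09, 2.00 and 1.05, so the last 2 differed in background more than in fragments. The strongest was also the broadest (91070833 to 91071546, 714 bp) and lay in intron 1, its summit 850 bp from the start site. No other peak lay in the 53.8 kb of the gene. The flank peaks were 1 in Chd9 (fold enrichment 5.22) and 1 at the promoter of Aktip (5.35).
The bases around the summit of the strongest promoter peak are shown for comparison with the promoter itself, and none of the motifs searched lies in them.
Rbl2 intron 1 peak, chr8:91070807-91071007, plus strand: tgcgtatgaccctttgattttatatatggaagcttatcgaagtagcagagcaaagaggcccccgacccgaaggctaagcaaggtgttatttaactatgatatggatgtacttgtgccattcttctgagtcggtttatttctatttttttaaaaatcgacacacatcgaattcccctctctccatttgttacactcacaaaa

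The windows of the genes were then compared by peak density, since they differ in length. The 8 windows, 1371 kb in all, had 152 peaks per Mb, or 3.40 times the 44.9 per Mb of the genome (95% Poisson interval 2.95 to 3.89). Without Cdk6 the ratio was 2.20. Relative to the genome, Cdk6 stood highest at 7.83 (6.39 to 9.51), followed by Ccnd3 at 5.49 (4.05 to 7.28), Ccnd1 at 3.45 (2.01 to 5.52) and Rbl1 at 2.11 (1.18 to 3.47). The intervals of Cdk4 (1.72, 0.741 to 3.38), Rb1 (1.34, 0.731 to 2.24) and Rbl2 (0.724, 0.235 to 1.69) included 1, and that of Ccnd2 (0) ended at 0.647. Each interval overlapped that of its neighbor in this order, and the differences between genes were not tested. The density of Cdk6 exceeded that of 98.2% of protein-coding windows, that of Ccnd3 94.0% and that of Ccnd1 82.4%. Lower came Rbl1 (66.4%), Cdk4 (59.9%), Rb1 (53.0%), Rbl2 (39.8%) and Ccnd2 (0%). The median protein-coding window had 53.6 peaks per Mb, more than the genome as a whole. Intervals cover counting error only, and peaks that stand in groups are not independent, so the true error is larger.

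**Figure D2:**
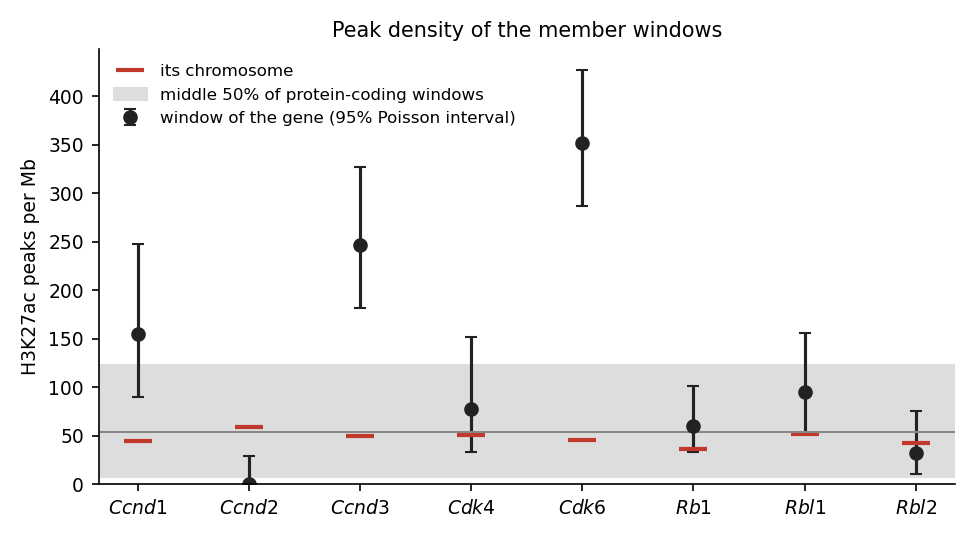
Peaks per Mb in the window of each gene (points, with 95% Poisson intervals for counting error only), with the density of its chromosome (red bars) and the median and middle 50% of all protein-coding windows (line and gray band). Cdk6 and Ccnd3 lie above the band with their whole intervals, the other 6 genes overlap the band.

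Of the 209 peaks, 14.8% were promoter peaks (exact 95% interval 10.3 to 20.4%), 46.4% gene body peaks and 38.8% flank peaks. Over the windows of all protein-coding genes these shares were 12.8%, 24.8% and 62.4%. The flank is fixed at 50 kb, so in long genes the body fills more of the window. Gene length was not matched in this comparison. Cdk6 supplied 59 of the 97 gene body peaks, and without Cdk6 the gene body share was 35.5% (38 of 107). Another gene's promoter was overlapped by 28 of the 81 flank peaks. The peaks as such were ordinary in size: their median fold enrichment was 5.34 and their median width 159 bp, against 5.22 and 163 bp in the whole list. The local background was at its lowest value at 59.8% of them and at 47.3% of all peaks. Promoter summits of the genes lay mostly off the start site itself, with 3 of 31 (9.68%) within 250 bp of it, against 18.9% over all protein-coding genes.

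The strongest promoter peak of each gene was set beside those of the 9920 protein-coding genes that have one. Rbl2 (12.1) exceeded 90.7% of them. Ccnd3 (7.80), Cdk4 (7.11), Cdk6 (6.98) and Ccnd1 (6.51) lay between 36.4% and 56.1%, and Rb1 (5.22) and Rbl1 (4.54) exceeded 16.2% and 8.91%. The median over the 7 genes was 6.98, against 7.37 over all genes with a promoter peak. The fragment numbers of the strongest peak, 27 at Rbl2 (95% Poisson interval 17.8 to 39.3) and 10 at Rbl1 (4.80 to 18.4), had intervals that overlapped, and this pair was the extremes of the 7 genes. Cdk4 had 23 fragments (14.6 to 34.5), close to Rbl2, but over a local background of 2.00 against 1.05 at Rbl2.

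**Figure D3:**
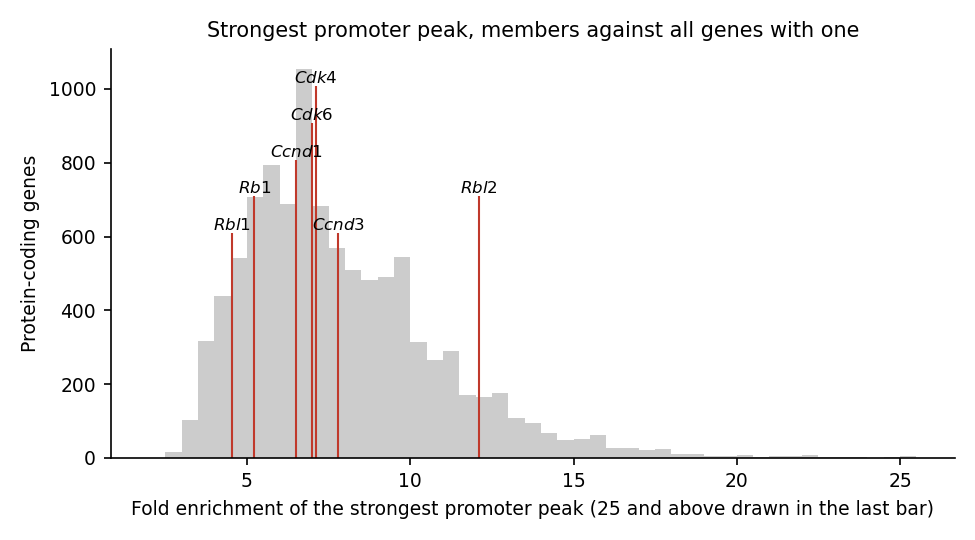
Histogram of the fold enrichment of the strongest promoter peak over the 9920 protein-coding genes with one (gray bars, 0.5 wide), with the 7 genes of the family as red lines whose heights carry no value. Rbl2 at 12.1 stands in the upper tail, and the other 6 lie between 4.54 and 7.80.

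The motifs were also searched within 100 bases of the summits, and the shares were not tested. A myogenic E-box was found in 26 of the 209 windows (12.4%, and 10.0% of all peaks), a TEAD motif in 25 (12.0% and 11.4%), an AP-1 motif in 12 (5.74% and 5.18%) and an E2F motif in 1, at Ccnd3 (0.478% and 0.422%). The ETS motif was found in 12 windows (5.74% and 3.195%), the GC box in 13 (6.22% and 4.14%) and the E-box of MYC in 8 (3.83% and 2.66%). A CHR element was found in 43 (20.6% and 18.0%), the CAAT box in 45 (21.5% and 22.3%), the forkhead motif in 6 (2.87% and 3.27%) and the cAMP response element in 0 (0.153% of all peaks). Of the 26 windows with a myogenic E-box, 10 lay at Ccnd3 (of 48 peaks), 9 at Cdk6 (of 102) and 5 at Ccnd1 (of 17).

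Other genes of the pathway were taken from 7 lists. A promoter peak was found at 48 of 58 genes (82.8%), beside 45.6% of all protein-coding genes. Of the E2F and DP factors, which the pocket proteins hold, 8 of 10 had one, led by E2f1 (fold enrichment 9.53) and E2f5 (8.09), and E2f2 and E2f8 had none. Of the DREAM subunits, 5 of 6 had one, led by Lin52 (8.51) and Lin54 (8.24), and Mybl2 had none. Later cyclins and CDKs, which act from late G1 to mitosis, had one at 8 of 9 genes, led by Cdk1 (9.96) and Cdk2 (7.37), and Ccna1 had none. The 3 subunits of the kinase that activates CDKs all had one, with Mnat1 at 9.53, Cdk7 at 9.10 and Ccnh at 3.58. Of the CDK inhibitors, 5 of 7 had one, led by Cdkn1b (p27, 13.2) and Cdkn2c (p18, 10.8), and Cdkn1c and Cdkn2d had none. Genes of cyclin D turnover had one at 7 of 8, led by the kinase gene Gsk3b (14.8) and by Ambra1 (11.2), which recruits D cyclins for degradation, and the deubiquitinase gene Usp2 had none. Of the S-phase targets of E2F, 13 of 16 had one, led by Tk1 (10.3) and Mcm3 (8.73), and Mcm5, Cdc6 and Pola1 had none. Cdk3 was not matched to a protein-coding gene of RefSeq.

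**Figure D4:**
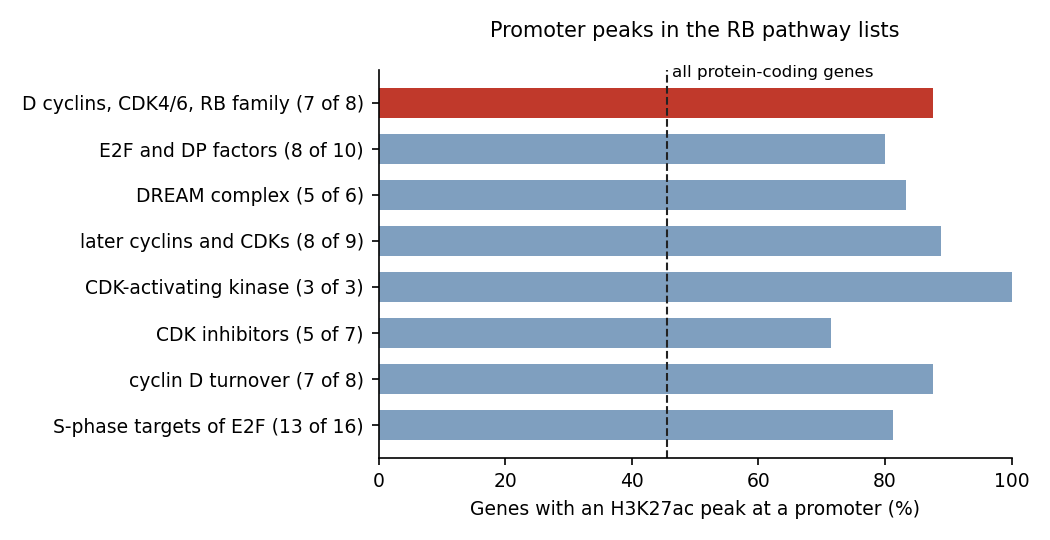
Percent of genes with a promoter peak in the family (red) and in the 7 pathway lists (blue), with the count beside each name and all protein-coding genes as a dashed line at 45.6%. Every bar ends right of the line, and each rests on 3 to 16 genes of 1 library.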

How the data were processed

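H3K27ac was profiled by CUT&RUN (15 libraries), and 1 deposited list of peaks, that of MCP H3K27ac replicate 5, was used. According to the methods of the study, the authors mapped reads to mm10 with bowtie, left out problematic regions and one near Col19a1, and used an early MACS with the matching IgG as control. The labels instead name BWA, SAMtools and MACS2, so the tools behind the list are not certain. The deposited fold column is a ratio, with the fragments over a summit, scaled to the IgG control, plus 1 above and the local IgG background plus 1 below. The deposited -log10 p and -log10 q values are the authors' own and were used only to filter peaks or to recover fragments. Depth is not stated, so both columns were solved for whole fragments per summit, with 1 scale for the list (0.885). This gave whole numbers within 0.01 on the -log10 p scale for 99.999% of the peaks, and 1 peak stayed unsolved. Only 1 whole number solved 96.8% of the peaks and 202 of the 209 near the 8 genes, and for the others the number with the smallest misfit was used, including both of these peaks given 7 fragments. These fragments are inferred, and intervals cover counting error only.

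Peaks were assigned to RefSeq genes of GRCm38.p6, the assembly of mm10, with coordinates 1-based. The members and lists were chosen with earlier results of these data known, and no test was run on 1 library. Named were the 8 genes with their strongest promoter, gene body and flank peaks and their broadest peak, genes whose promoter held a flank peak, and from each list the 2 highest genes and every gene without a promoter peak. Alternatives were stricter peaks (-log10 q of at least 5, or the strongest 25% by fold), peaks within 500 bp merged, promoters of 1 kb, curated start sites, flanks of 20 and 100 kb, summits in place of overlap, and each gene's own chromosome. The cluster ranks and the CACGTG motif were added after seeing the data. The steps were tested on simulated data. Python 3.11.15, pandas 2.3.3, SciPy 1.17.1 and pysam 0.24.0 were used.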

Additional observations from a re-analysis of the deposited data

How the results depend on the processing

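The number of peaks in the 8 windows fell from 209 to 107 with -log10 q of at least 5, to 99 with peaks within 500 bp merged and to 59 with the strongest 25% of the peaks, since each removes or joins peaks by construction. Cdk6 led and Ccnd2 had 0 under each of these and under both other flanks. The promoter share was 10.0% with promoters of 1 kb. The density ratio was 4.20 with flanks of 20 kb and 2.79 with flanks of 100 kb, and 3.30 against each gene's own chromosome. With either set of stricter peaks 5 of the 8 genes kept a promoter peak, and Rb1 and Rbl1 lost theirs. The share of all protein-coding genes was not computed with stricter peaks, so these 5 have no background beside them. Of 88 values recomputed, 60 stayed within 1.5 times the count or within the counting interval. Of the 40 counts of peaks per gene 22 moved further, and of the 14 values of the strongest promoter peak per gene 0 did. Those 14 came only from promoters of 1 kb and curated start sites, which mostly keep the same peak. The stricter peaks were not among them, so the 14 say little about stability. Among 58 genes of the lists 46 had a promoter peak with promoters of 1 kb, beside 43.6% of all protein-coding genes. With curated start sites or with summits 48 did, beside 45.6% and 45.4%. The lists were not counted with the stricter peaks. No paired analysis was possible because the only list belongs to 1 library. Depth limits the weak peaks most, since only 34 of the 209 summits had at least 20 fragments, and 15.8% of all peaks in the list did.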

Other observations

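Some genes around the family stood in denser surroundings than most of its members. The windows of Cdkn2a and Cdkn2b, which encode p16INK4a and p15 and lie side by side, had 641 and 563 peaks per Mb, and their windows share most of these peaks. The window of Cdkn1b had 266 peaks per Mb, and those of the replication genes Cdc6, Cdt1, Tk1 and Pcna had 361, 295, 289 and 279. Cdc6 had 42 peaks in its window and none at its promoter. At the other end, Cdkn1c had no peak in its window and Pola1 had 2. These genes were named after their values were seen.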
